A study of Mus musculus with 6 samples.

Results

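The 9 genes described here mark osteoblasts and the bone matrix they lay down. They were chosen by name, with earlier results of these data known. They are Sp7, Ibsp, Bglap, Bglap2, Dmp1, Ifitm5, Phex, Spp1 and Sparc, 9 of the 32286 genes counted in single-cell RNA sequencing of digits in a dish (DID) cultures, and each symbol named 1 row of the count matrices. The cultures were grown from wildtype CD-1 mouse embryos at E11.5, whose distal forelimb mesenchyme was dissected, pooled, dissociated and plated at high density. Libraries were made after 2, 7 and 10 days with the 10x Genomics 3′ kit, from 2 independent cultures (replicates A and B) per day, and no treatment or genotype separated the groups. Limb buds of many embryos were pooled, so the libraries say nothing of single embryos, and no library of bone in the embryo was used here.

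Osteoblasts arise from mesenchymal progenitors under the transcription factor Runx2 and then Sp7 (osterix). They secrete type I collagen and non-collagenous matrix proteins, and the matrix then mineralizes, a step for which the phosphatase Alpl is needed. In the limb, the long bones and phalanges begin as cartilage, whose chondrocytes enlarge, express Col10a1, and also express several bone matrix genes before bone replaces them.

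Among the 9 genes, Sp7 encodes the transcription factor and the other 8 encode secreted or membrane proteins. Ibsp (bone sialoprotein), Spp1 (osteopontin) and Dmp1 encode acidic phosphoproteins of 1 family (SIBLING proteins). On the GRCm38 assembly they lie on the plus strand of chromosome 5, with Dmp1 at chr5:104202613-104214102, Ibsp at chr5:104299171-104311469 and Spp1 at chr5:104435118-104441050, and 238 kb span all 3. Bglap at chr3:88383501-88384464 and Bglap2 at chr3:88377736-88378699 encode osteocalcin, a small calcium-binding protein of bone, and lie on the minus strand within 15.8 kb together with Bglap3. Their annotated transcripts were identical at 98.6% of 440 aligned bases. How reads of the 2 were assigned or lost in counting was not tested, and their separate values are uncertain. Ifitm5 at chr7:140948958-140950291 encodes a small membrane protein of mineralizing osteoblasts that is mutated in a form of brittle bone disease. Sparc (osteonectin) at chr11:55394500-55423183 encodes a collagen-binding glycoprotein made by many connective tissues. Phex at chrX:157162075-157415312, a membrane peptidase, and Dmp1 are known from inherited phosphate wasting and from osteocytes. Sp7 lies at chr15:102356606-102367182.

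Promoter sequences for 7 of the 9 genes were matched in RefSeq (GRCm38.p6). Those of Ibsp, Ifitm5 and Bglap are shown because these genes moved farthest between Day 7 and Day 10 among the matched ones. Each is the 250 bases before the RefSeq start, 5′ to 3′ on the strand of the gene, and capitals mark the motifs found. The search, on both strands, was for the TATA box spelled TATAAA, the box spelled CCAAT, the GC box spelled GGGCGG, the RUNX motif spelled ACCACA and the homeodomain motif spelled TAATTA.
Ibsp, chr5:104299037-104299286, plus strand: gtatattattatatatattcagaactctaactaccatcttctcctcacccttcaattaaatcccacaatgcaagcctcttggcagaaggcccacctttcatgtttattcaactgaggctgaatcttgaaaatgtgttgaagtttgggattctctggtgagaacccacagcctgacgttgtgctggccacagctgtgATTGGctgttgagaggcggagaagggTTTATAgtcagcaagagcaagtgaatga
Ifitm5, chr7:140950244-140950493, minus strand: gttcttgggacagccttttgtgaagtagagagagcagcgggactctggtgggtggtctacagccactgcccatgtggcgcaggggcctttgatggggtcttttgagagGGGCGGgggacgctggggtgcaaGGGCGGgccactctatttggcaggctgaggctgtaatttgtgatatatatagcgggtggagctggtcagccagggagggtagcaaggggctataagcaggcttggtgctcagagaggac
Bglap, chr3:88384467-88384716, minus strand: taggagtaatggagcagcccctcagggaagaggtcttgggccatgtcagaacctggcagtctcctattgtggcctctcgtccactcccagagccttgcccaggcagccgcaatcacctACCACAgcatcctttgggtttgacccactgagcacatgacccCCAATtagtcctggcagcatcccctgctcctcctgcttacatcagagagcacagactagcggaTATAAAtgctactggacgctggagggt

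The Ibsp window held both the TATA and the CCAAT letters in reverse orientation, at bases -28 to -23 and -54 to -50 from the start. Bglap held the same motifs in forward orientation, at -27 to -22 and -90 to -86, and a RUNX motif at -132 to -127. In Ifitm5 the search found 2 GC boxes, at -142 to -137 and -119 to -114, and no TATAAA. Of 32851 RefSeq promoters of 300 bases, 13.6% held the TATA box letters, 37.4% those of the CCAAT box, 35.7% the GC box, 16.8% the RUNX motif and 5.29% the homeodomain motif, and a match is a description only. The GENCODE annotation starts Ibsp 116 bases and Ifitm5 48 bases upstream of the RefSeq start.

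The libraries kept 9448 to 16486 cells and 178022112 to 260245417 UMIs (unique molecular identifiers, 1 per captured transcript) after the quality limits of the study. Day 2 replicate B was shallow, with a median of 3871 UMIs per cell against 18587 in Day 2 replicate A and 8062 to 24197 in the others. Pairs of libraries shared 24 to 67 barcodes, at most 0.543% of the smaller library. Runx2 was present in all 6 libraries at 31.7 to 63.0 CPM (UMIs scaled to a common library total). Markers of other cell types moved with time too, and their part in the results below was not tested. All 6 macrophage genes and 6 of 6 tested osteoclast genes were higher at Day 10 than at Day 7, where 26.3% of all tested genes were, and all 7 muscle genes were lower at both steps, where 34.6% and then 25.9% of all tested genes were. Summed over its list, the macrophage level was 11.4 to 23.1 CPM on Day 2, 25.5 to 36 by Day 7 and 96.9 to 122 by Day 10, the osteoclast level went from 13.7 to 14.3 CPM on Day 2 to 58.3 to 105 by Day 10, and the muscle level from 268 to 333 CPM down to 3.62 to 6.82. Sums over cells cannot separate more cells of a type from more RNA per cell.

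Most of the 9 genes rose at both steps of the culture, and Ibsp, Ifitm5, Bglap and Bglap2 rose by far the most between Day 7 and Day 10. At Day 7, 7 of the 9 were higher than at Day 2 and 1, Phex, was lower, against 35.7% of the 18987 genes tested that were higher and 34.6% that were lower. At Day 10 against Day 7, all 9 were higher, against 26.3% of all genes, while 25.9% were lower. Since the 9 were chosen with earlier results of these data known, these counts describe the set and are no independent support. Calls in this paragraph are at an adjusted p under 0.05 in the quasi-likelihood test of edgeR on summed UMIs. The median log2 fold change of the 9 genes was 1.72 in the first step and 1.87 in the second, beside 0.01 and -0.02 over all tested genes. Among all tested genes in the second step, Ibsp had the largest log2 fold change, Ifitm5 the third largest, Bglap ranked 13 and Bglap2 20. Across the whole interval, 8 were higher at Day 10 than at Day 2 and Phex was lower, against 39% and 38.2% of all genes in those directions.

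**Figure D1:**
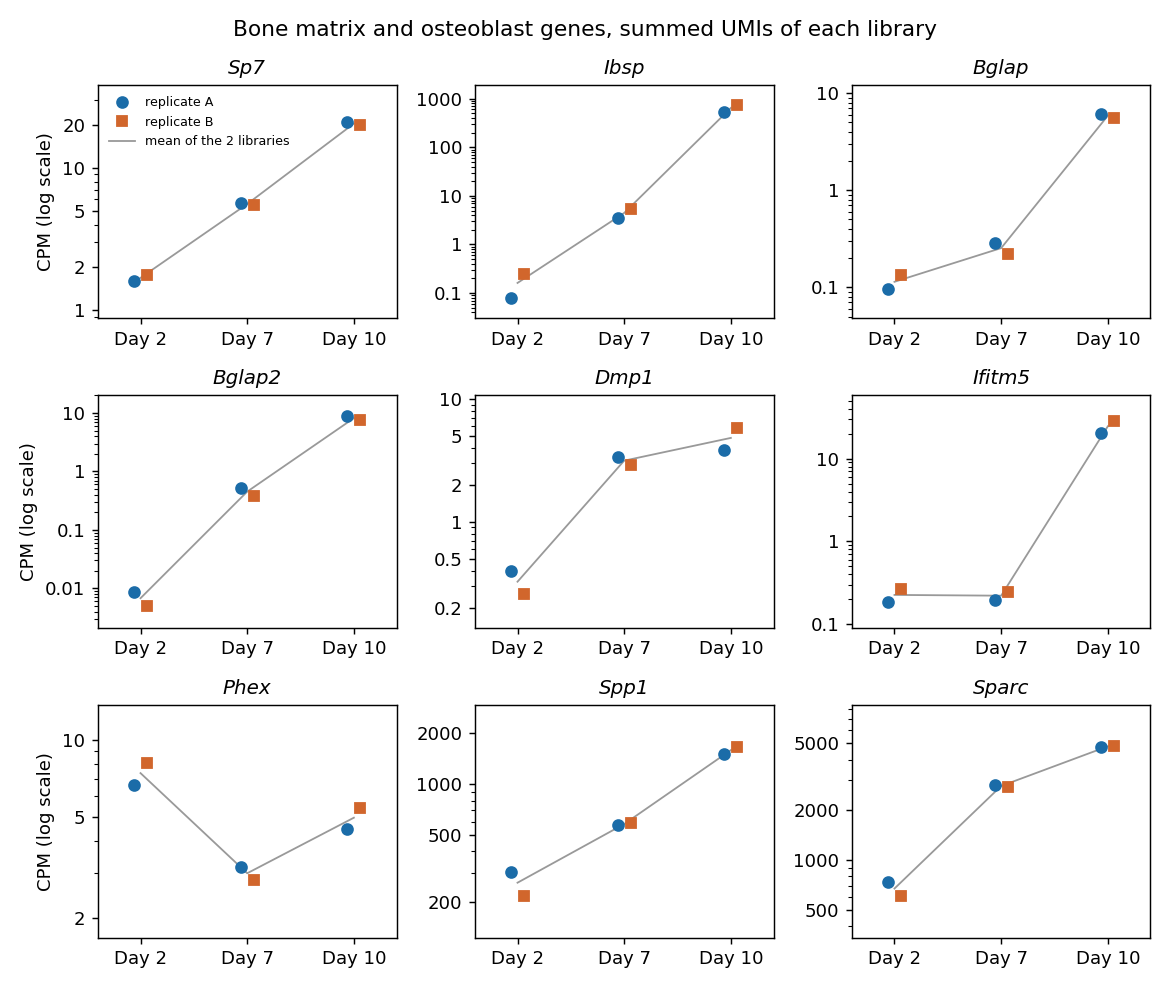
CPM of each gene (log scale, scaled by TMM) in the summed cells of each library against the day of culture, with circles for replicate A, squares for replicate B and a line through the mean of the 2 libraries. Ibsp rose from 0.162 to 644 CPM on average, Ifitm5 averaged 0.226 CPM at Day 2 and 0.221 at Day 7 before it rose, and Phex fell before it rose.

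Sp7 rose by a similar amount at each step. Its level, in CPM scaled by TMM (a factor that balances library composition) as for all 9 genes in summed cells below, was 1.61 in replicate A and 1.77 in replicate B on Day 2. By Day 7 it read 5.66 and 5.48 CPM, and the Day 10 libraries gave 20.9 and 19.9. The days did not overlap, and the log2 fold changes were 1.72 ± 0.07 (SE) at Day 7 against Day 2 and 1.87 ± 0.07 at Day 10 against Day 7 (adjusted p = 1.39e-07 and 1.76e-06). Of 9 other transcription factors of the osteoblast lineage, 4 were higher and 3 lower at Day 7, near the 35.7% and 34.6% of all genes, and 6 higher and 0 lower at Day 10 against Day 7, where 26.3% and 25.9% of all genes were. Runx2 rose by 0.72 ± 0.06 and then by 0.42 ± 0.06 on the log2 scale.

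Ibsp had the largest estimated fold change of the 9 from Day 2 to Day 10. The Day 2 libraries held 0.0779 and 0.246 CPM (18 and 50 UMIs), those of Day 7 3.56 and 5.35 CPM, and those of Day 10 531 and 757 CPM (130020 and 168189 UMIs). The days did not overlap, and the steps were 4.82 ± 0.40 and then 7.18 ± 0.28 on the log2 scale (adjusted p = 7.54e-06 and 2.52e-06). The Day 2 level is uncertain, since a single cell held 34 of the 50 UMIs of replicate B, and the first step was 5.82 without Day 2 replicate B and 4.18 without Day 2 replicate A.

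Ifitm5 rose in the second step and missed the threshold in the first. Its 0.186 and 0.265 CPM on Day 2 overlapped the 0.194 and 0.247 CPM of Day 7 (log2 fold change -0.02 ± 0.37, adjusted p = 0.962), and both Day 10 libraries, with 20.4 and 28.7 CPM, lay far above. The step from Day 7 to Day 10 was 6.79 ± 0.23 on the log2 scale (adjusted p = 1.76e-06).

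Both osteocalcin genes were near 0 early. Bglap went from 0.0952 and 0.133 CPM on Day 2 to 0.286 and 0.221 by Day 7 and then to 6.16 and 5.55, with log2 fold changes of 1.16 ± 0.23 and 4.52 ± 0.16. At Day 7, 2 cells held 48.2% of the 56 Bglap UMIs of replicate A and 1 cell held 29.3% of the 41 of replicate B, and the share of cells with a Bglap UMI was 0.141% and 0.178% after 0.233% and 0.164% on Day 2. Bglap2 had 2 and 1 UMIs in the Day 2 libraries, 102 and 71 in those of Day 7, and 2158 and 1671 in those of Day 10. The ratio of its counts between Day 7 and Day 2 was 65.7 (95% counting interval 22.1 to 322), and between Day 10 and Day 7 18.1 (15.5 to 21.2). These intervals cover counting error only. Bglap3, the third gene of the cluster, had 8 to 20 UMIs per library before Day 10 and 114 and 92 at Day 10.

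Spp1 and Sparc were abundant from the start. Spp1 started at 304 and 219 CPM, reached 572 and 590 by Day 7 and ended at 1511 and 1670, a change of 1.15 ± 0.14 and 1.45 ± 0.14 on the log2 scale. Sparc started at 741 and 606 CPM, reached 2815 and 2742 by Day 7 and ended at 4793 and 4820. Its first step, 2.04 ± 0.10, was larger than its second, 0.79 ± 0.10.

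Dmp1 and Phex followed other courses. Dmp1 went from 0.394 and 0.256 CPM to 3.40 and 2.89 by Day 7, and the Day 10 libraries gave 3.85 and 5.79. Its rise at Day 7 (3.26 ± 0.25) was called under each alternative run. The rise at Day 10 (0.61 ± 0.20, adjusted p = 0.031) was lost without Day 7 replicate B (adjusted p = 0.137) or Day 10 replicate B (adjusted p = 0.249) and with the replicate letter as a block (adjusted p = 0.0541), and a single cell held 16.3% of the Dmp1 UMIs of Day 10 replicate B. Phex started at 6.66 and 8.14 CPM, fell to 3.17 and 2.83 at Day 7 (-1.30 ± 0.13, adjusted p = 2.09e-05), and rose to 4.47 and 5.43 at Day 10 (0.72 ± 0.13, adjusted p = 0.00191).

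**Figure D2:**
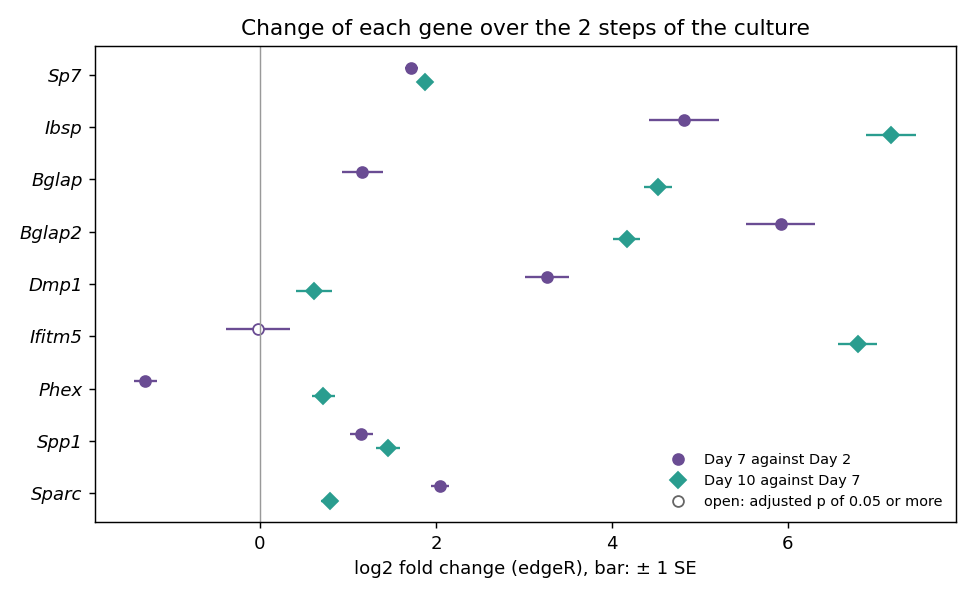
Log2 fold change of each gene (edgeR, bars ± 1 SE, n = 2 libraries per day) from Day 2 to Day 7 (circles) and from Day 7 to Day 10 (diamonds), with open symbols where the adjusted p was 0.05 or more. The bars derive from the test statistic. That of Bglap2 in the first step is smaller than the counting error of its 2 and 1 UMIs at Day 2. Ifitm5 sits at -0.02 in the first step and 6.79 in the second. Dmp1, Sparc and Bglap2 rose more in the first step, and Phex fell by more than it later rose.

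The difference between the steps was itself tested, in a contrast chosen after the values were seen and over steps of unequal length. It was higher than 0 for Ifitm5 (6.82 ± 0.55), Bglap (3.36 ± 0.36), Ibsp (2.36 ± 0.70) and Phex (2.02 ± 0.23), and lower for Dmp1 (-2.65 ± 0.38), Sparc (-1.25 ± 0.16) and Bglap2 (-1.75 ± 0.65, adjusted p = 0.0483), against 25% and 28% of all genes higher and lower. The Bglap2 value rests on 2 and 1 UMIs at Day 2, and its SE does not cover their counting error. Of 99 recomputed values of this contrast, 8 lost the call, and not all of them are named below. The values of Ibsp and Bglap2 missed the threshold without Day 2 replicate B (adjusted p = 0.383 and 0.191). For Sp7 and Spp1 the steps differed by 0.15 ± 0.12 and 0.30 ± 0.23, which missed it, and that of Spp1 was called without Day 2 replicate B (0.52, adjusted p = 0.00487).

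Other genes of the bone program moved too. In a list of 9 genes for type I collagen and its processing, all 9 were higher at Day 7 than at Day 2 (median log2 fold change 1.76), beside 35.7% of all genes, and 4 were higher and 3 lower at Day 10 against Day 7, beside 26.3% and 25.9%. Col1a1, the main chain of bone collagen, rose by 1.91 ± 0.09 and then by 0.88 ± 0.09, while Plod2, a collagen cross-linking enzyme, fell by 0.97 in the second step (SE 0.08). Of 7 mineralization genes, 6 were higher at Day 7, and 4 were higher and 2 lower at Day 10 against Day 7. Alpl rose by 2.5 ± 0.10 and 2.30 ± 0.09, and Smpd3, a sphingomyelinase needed for mineralization, by 6.93 ± 0.13 and 1.73 ± 0.09. Of 9 tested genes for other bone matrix proteins, 7 were higher at Day 7 and 6 at Day 10 against Day 7, led in the second step by Mepe (3.69 ± 0.69), another SIBLING gene, with 4 and 1 UMIs by Day 7 and 60 and 23 at Day 10. Dspp, the dentin member of that family, had 3 and 1 UMIs at Day 2 and 0 in the other 4 libraries. Of 6 osteocyte genes, 2 were higher and 3 lower at Day 7, and 3 higher and 1 lower at Day 10 against Day 7, against the same shares of all genes. Sost, an inhibitor of bone formation, had 142 and 89 UMIs in the Day 2 libraries, 21 and 15 by Day 7 and 39 and 103 at Day 10, with log2 fold changes of -2.48 ± 0.50 and then 1.71 ± 0.51, with most of the Day 10 UMIs in replicate B. Fgf23, a phosphate-regulating hormone, fell by 1.62 in the second step (SE 0.47), to 5 and 8 UMIs.

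Hypertrophic cartilage genes rose alongside. All 6 were higher at Day 7 and 5 of 6 were higher at Day 10 against Day 7, with Col10a1 at 2.93 ± 0.16 and 1.88 ± 0.15 on the log2 scale. Mmp13, a collagenase, had 1 and 2 UMIs in the Day 2 libraries and 413 and 457 in those of Day 7, too few on Day 2 for a firm fold, and then rose by 3.0 ± 0.08. The 6 cartilage genes, by contrast, were all lower at Day 10 than at Day 7, with Col2a1 at -0.66 ± 0.09, after 5 of 6 had risen by Day 7. In a list of 6 genes made of Cnn1, Tagln and Acta2 (contractile genes) and Igfbp7, Wnt10a and Stmn2, 3 were higher and 1 lower at Day 7, and 4 were higher at Day 10 against Day 7. Of 3 perichondrium genes 2 and 2 were higher in the 2 steps, with 1 lower in the second, and of 4 tendon genes 2 and 3 were higher and 2 and 1 lower. With 35.7% and 34.6% of all genes higher and lower in the first step and 26.3% and 25.9% in the second, nothing is read from these 3 short lists.

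Within single cells, a few cells held nearly all Ibsp and Ifitm5 transcripts. At Day 10 the top 1% of cells held 84.9% and 85.2% of the Ibsp UMIs of replicates A and B, 91.7% and 85.3% of Ifitm5, and 83.0% and 75.6% of Bglap. The same fraction held 22.0% and 20.6% of Sp7 UMIs, 23.5% and 23.2% of Spp1 and 4.73% and 5.18% of Sparc. One cell of replicate B had 5864 Ibsp UMIs. Cells with 10 or more Ibsp UMIs numbered 392 of 10385 and 401 of 9949 at Day 10, 3.77% and 4.03% of all cells, and held 97.3% and 97.9% of Ibsp UMIs. There were 11 and 19 such cells at Day 7 and 0 and 1 at Day 2.

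**Figure D3:**
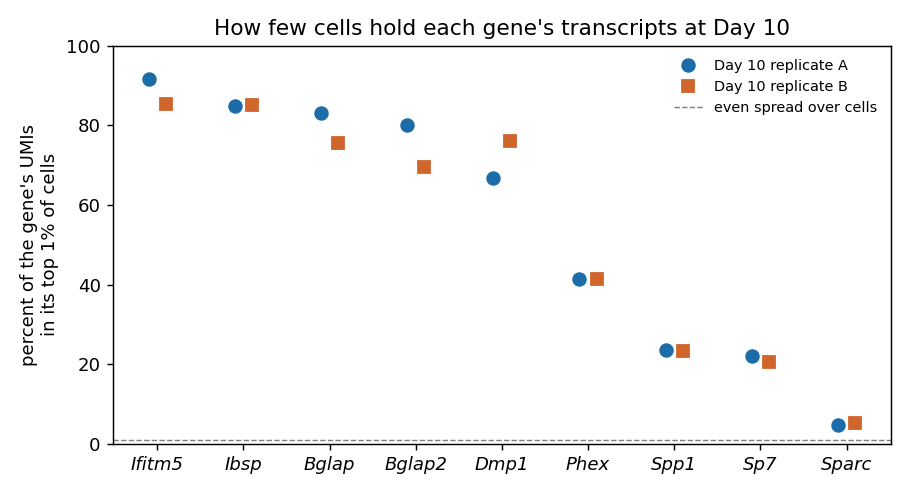
Percent of the UMIs of each gene in the 1% of cells with most of them, in Day 10 replicates A (circles) and B (squares), with a dashed line where an even spread would lie. Ifitm5 and Ibsp lie between 84.9% and 91.7%, and Sparc lies at 4.73% and 5.18%.

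Transcripts of Ibsp were also found at Day 10 in cells with macrophage genes, and their source was not tested. At least 1 Ibsp UMI was found in 25.3% and 25.8% of cells, and in 17.6% and 20.2% of the 142 and 198 cells with 3 or more macrophage genes, whose median depth was 20610 and 20226 UMIs against 24294 and 22204 outside. The share outside these macrophage gates was 25.4% and 25.9% (exact 95% binomial intervals 24.5 to 26.2 and 25 to 26.7), and the intervals of the gated cells were 11.7 to 24.9 and 14.8 to 26.5. These intervals cover counting error within a library only. Of the gated cells, 1 and 6 had 10 or more Ibsp UMIs, where 3.77% and 4.03% of all cells did. Sp7 was found in 6.34% and 10.1% of gated cells against 20.2% and 19.0% outside, and Phex in 2.11% and 2.02% against 6.33% and 6.71%. Spp1 was found in more of the gated cells, 93% and 91.4%, than outside, 81.7% and 79.7%.

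To compare days at equal depth, each cell was thinned to 3000 UMIs, which kept the 58.6% to 93.2% of cells per library that had as many. The share with a UMI was then 9.05% and 10.0% for Ibsp at Day 10, after 0.6% and 0.667% by Day 7 and 0.0114% and 0.0207% on Day 2. Sp7 was found in 5.41% and 5.13% of thinned cells at Day 10 and in 0.602% and 0.663% at Day 2. For Spp1 the share went from 17.6% and 24.3% through 27.4% and 24.5% to 50.9% and 53.8%. For 8 of the 9 genes both Day 10 shares were above both Day 2 shares, and Phex was the exception with 1.89% and 2.30% at Day 2 and 1.55% and 1.73% at Day 10. How many of all genes did so was not counted, and nothing is read from the number.

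At Day 10, Sp7, Ibsp, Ifitm5, Bglap and Bglap2 were found together in cells more often than independence gave. Dmp1 was found together with Spp1 and with Phex, the latter a pair with under 3 expected cells, while with Sp7 and Ibsp the libraries differed. Phex shared cells with both Dmp1 and Ibsp. In cells thinned to 3000 UMIs, 116 and 146 cells had both Ibsp and Ifitm5, where independence in each library gave 12.9 and 17.7, so the pair was seen 8.97 and 8.25 times as often. Ibsp was in 81.1% and 82.5% of the cells with Ifitm5. Sp7 with Ifitm5 reached 7.24 and 6.49 times, Ibsp with Bglap 5.87 and 4.86, Ibsp with Bglap2 5.30 and 5.29, and Sp7 with Ibsp 3.14 and 3.10. Bglap and Bglap2 shared 42 and 39 cells where fewer than 3 were expected, and the part of their near-identical transcripts in this was not tested.

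Dmp1 shared cells with Phex, in 12 and 9 cells where 1.38 and 1.62 were expected, and with Spp1, at 1.59 and 1.62 times the expected number. With Ibsp the libraries went opposite ways, at 0.62 and 1.6 times, and likewise with Sp7, at 0.21 and 1.45 times. Phex with Ibsp reached 1.79 and 1.76 times, and Phex with Spp1 1.49 and 1.37. Ifitm5 and Spp1 were seen together less often than independence gave, in 45 and 67 cells where 72.8 and 95.1 were expected. Sparc was in nearly every cell and gave ratios between 0.998 and 1.02 with the other 8. Of the 36 pairs, 26 had at least 3 expected cells in both Day 10 libraries, and 9 of these exceeded 1.5 times in both. At Day 7 it was 2 of 11, Dmp1 with Spp1 (2.47 and 2.19) and Phex with Spp1 (2.01 and 2.02), and at Day 2 it was 0 of 7. These ratios describe cells of a library and carry no p. Without thinning the counts were 15 of 36, 5 of 21 and 1 of 15. Cells with at least 3 of the 7 genes other than Spp1 and Sparc numbered 104 and 114 at Day 10 and 0 or 1 in the earlier libraries.

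**Figure D4:**
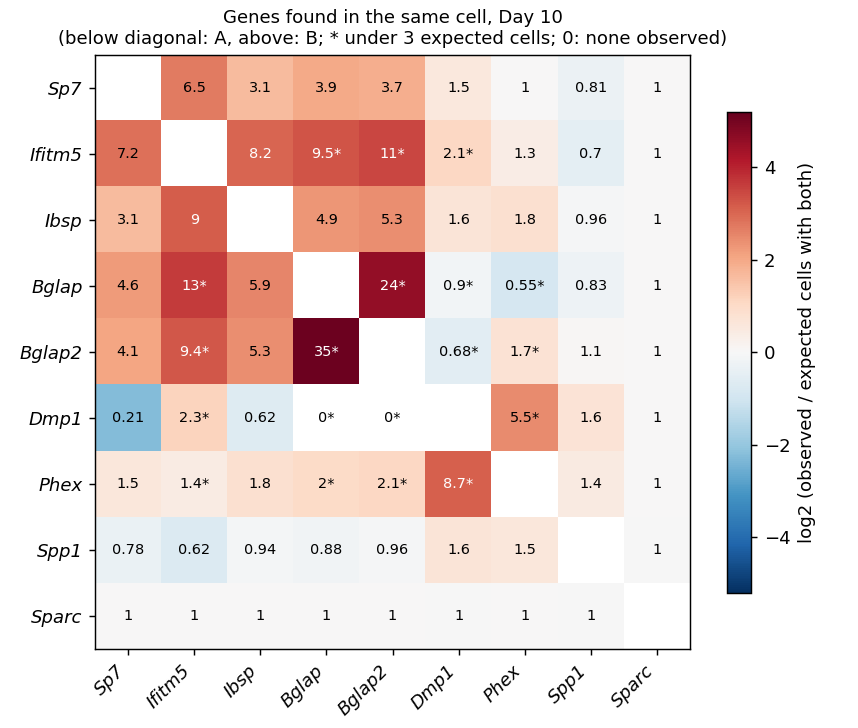
Ratio of observed to expected cells with both genes of a pair at Day 10, at 3000 UMIs per cell, printed in each square and colored on a log2 scale, with replicate A below the diagonal and replicate B above it. Asterisks mark pairs with under 3 expected cells, a ratio of 0 is drawn without color, and the red block at the upper left joins Sp7, Ifitm5, Ibsp, Bglap and Bglap2.

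Among the 10 genes that most separated cells with and without an Ibsp UMI at Day 10, Alpl and Smpd3 were of the mineralization list. Mmp13 and Pth1r were of the hypertrophic cartilage list, and neither list was tested. The remaining genes of both lists were not among the 10. Ranked by the lower fold of the 2 libraries over 5356 genes with enough counts, Ifitm5 came first at 71.4 and 94.3-fold, followed by the citrate transporter Slc13a5 (16.0 and 17.5), the sodium-calcium exchanger Slc8a3 (4.83 and 4.86), Alpl (4.40 and 4.45), the sphingomyelin synthase Sgms2 (4.74 and 4.40), Mmp13 (5.67 and 3.62), Smpd3 (3.52 and 3.69), the parathyroid hormone receptor Pth1r (3.45 and 3.46), Sp7 (3.45 and 3.57) and Pcsk6 (3.21 and 3.20). Bglap, Dmp1 and Phex lay under the minimum of 20 CPM in cells with Ibsp and could not be ranked. Bglap2 did not meet the minimum counts either. Cells with Ibsp were deeper, at a median of 30139 and 28331 UMIs against 22122 and 19389, and the folds compare CPM.

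The pattern was steeper in the 392 and 401 cells with 10 or more Ibsp UMIs, a threshold set after the counts were seen. Against cells with no Ibsp UMI, Ifitm5 was at 341 and 424 CPM against 0.856 and 0.879, and these few cells held 94.3% and 95.8% of all Ifitm5 UMIs. Sp7 was 10.6 and 10.2-fold higher, Bglap 64.3 and 25-fold, Alpl 14.4 and 13.3-fold, and Dlx3, a homeobox factor of osteoblasts, 19.4 and 24.2-fold. Not all listed osteoblast factors went this way. In the replicate A cells of this group with no Col10a1 UMI, Msx2 was at 5.36 CPM against 13.7 in the whole library. Atf4 was near level there, at 305 against 298 CPM, and the rest of the list was higher. A Sp7 UMI was found in 81.9% and 80.8% of the 392 and 401 cells, an Alpl UMI in 98.7% and 97.8%, an Ifitm5 UMI in 42.9% and 50.4%, and a Bglap UMI in 30.4% and 31.9%. Spp1 went the other way at 0.52 and 0.58-fold, and Sparc was near 1, at 1.03 and 1.11-fold. Col1a1 was 1.20 and 1.35-fold higher. Tyrobp, a macrophage gene, was at 0.362 and 6.68 CPM against 28.3 and 42.7 in cells with no Ibsp UMI, and Cnn1, a contractile gene, at 18.1 and 26.8 against 134 and 125.

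In the 11 and 19 Day 7 cells with 10 or more Ibsp UMIs, Bglap already had 9 and 16 UMIs and Bglap2 13 and 10, from 2 to 4 cells each, whereas Ifitm5 had 2 and 1. Sp7 was found in 54.5% and 31.6% of these cells. At these counts, the low Ifitm5 is a value of 2 small groups of cells and carries no test.

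The cells rich in Ibsp at Day 10 were split by their Col10a1 UMIs. Of the 392 and 401 cells, 72 and 56 also had 10 or more UMIs of Col10a1, the collagen of hypertrophic cartilage. Independence gave 16.4 and 14.8 such cells, without thinning. Cells with 10 or more Col10a1 UMIs were 4.18% and 3.70% of all cells, and 18.4% and 14.0% of the Ibsp-rich ones. In these 72 and 56 cells Ifitm5 was at 2.13 and 18.6 CPM, against 493 and 605 CPM in the 200 and 264 Ibsp-rich cells with no Col10a1 UMI and 381 and 258 CPM in the 120 and 81 with 1 to 9. Of all cells with 10 or more Ifitm5 UMIs, 97 of 98 and 131 of 134 were among the Ibsp-rich cells, and 0 and 1 had 10 or more Col10a1 UMIs. Bglap was at 2.44 and 3.03 CPM in the Col10a1-rich cells against 67.9 and 67.3 without Col10a1, but at 122 and 23.7 with 1 to 9 Col10a1 UMIs, so it did not fall evenly. Col1a1 was at 987 and 1115 against 5874 and 5419. Sp7 was at 154 and 130 CPM without Col10a1 and at 46.0 and 42.8 in the Col10a1-rich cells. Ibsp itself was at 12311 and 14778 CPM without Col10a1 and at 2944 and 2613 with it.

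Other genes ran opposite or level. Col2a1 was at 24662 and 20702 CPM in the Col10a1-rich cells against 6292 and 5263, Ihh, a signal of prehypertrophic cartilage, at 232 and 232 against 70.6 and 42.0, and Spp1 at 1854 and 1853 against 425 and 740. Alpl was close in both, at 550 and 450 against 636 and 621 CPM, and Pth1r, at 1328 and 1110 against 1024 and 1013 CPM, was also high in both. The Col10a1-rich cells were the deepest, with a median of 46511 and 48233 UMIs against 30665 and 31852, and whether they include doublets was not tested in this split.

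**Figure D5:**
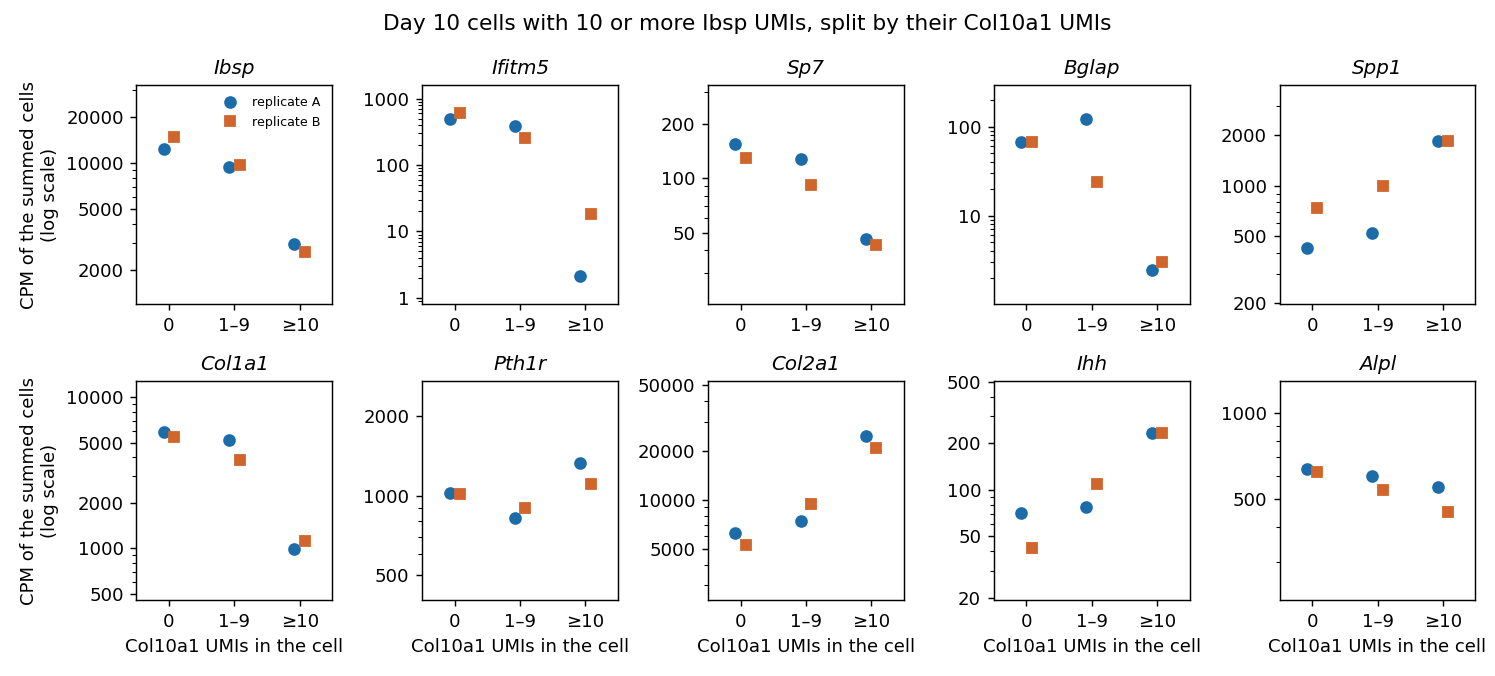
CPM (log scale) of 10 genes in the summed Day 10 cells with 10 or more Ibsp UMIs, split by the number of Col10a1 UMIs in the cell, for replicates A (circles) and B (squares). Ifitm5, Bglap and Col1a1 drop in the cells with 10 or more Col10a1 UMIs, Col2a1, Ihh and Spp1 rise, and Alpl stays near 450 to 636 CPM.

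At Day 10, 28.9% and 29.6% of cells had 10 or more Spp1 UMIs, and in them Ibsp was at 162 and 260 CPM, 0.19 and 0.22 times its level in cells with no Spp1 UMI. Ifitm5 was also at 0.19 and 0.22 times. Dmp1 was at 6.33 and 10.0 CPM against 1.64 and 0.285 (42 and 7 UMIs) in cells with no Spp1 UMI, and Phex was 3.06 and 1.53-fold higher. The smooth muscle genes Tagln and Acta2 were 3.24 and 3.71-fold and 2.72 and 2.71-fold higher, and the pyrophosphate exporter Ank was 2.61 and 2.68-fold higher. The study annotated osteoblast clusters by Spp1 with Wnt10a, Igfbp7, Cnn1 and Stmn2. In the Spp1-rich cells Wnt10a was at 12.4 and 21.0 CPM against 1.01 and 0.529 (26 and 13 UMIs), and Igfbp7 was 1.82 and 1.85-fold, Cnn1 2.81 and 2.55-fold and Stmn2 6.16 and 5.39-fold higher than in cells with no Spp1 UMI. In the Ibsp-rich cells the same 4 genes were at 0.43 and 0.28, 0.32 and 0.37, 0.13 and 0.21, and 0.30 and 0.21 times their level in cells with no Ibsp UMI. Cells with no Spp1 UMI were shallow, at a median of 6513 and 5010 UMIs against 35358 and 34540 in the Spp1-rich cells, and the part of depth in these folds was not tested.

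By the ranking used for Ibsp, now over 5428 genes, the genes most like Spp1 at Day 10 were the macrophage lysozyme Lyz2 (9.84 and 15.0-fold), Gjb2 (5.15 and 5.05), Cxcl2 (8.10 and 3.66), Actg2 (4.06 and 3.47), Stmn2 (3.44 and 3.32), Krt18 (3.10 and 3.90), Capg (2.92 and 3.15), Ass1 (2.87 and 3.29), Pcdh19 (2.74 and 3.51) and Ccl2 (2.70 and 3.26). Dmp1, Phex, Bglap and Bglap2 lay under the minimum of 20 CPM and could not be ranked. In the cells with 3 or more macrophage genes Spp1 stood at 1174 and 846 CPM, against 1425 and 1604 outside, and in the 54 and 87 cells with 3 or more osteoclast genes at 2648 and 3225 CPM, against 1411 and 1563 outside.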

How the data were processed

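Single-cell suspensions of DID cultures at Day 2, Day 7 and Day 10 were profiled in 6 libraries. The authors aligned reads to GRCm38 with STAR in Cell Ranger 6.1.2, and the deposited matrices hold raw UMI counts per gene and barcode, without normalization. Cells were kept by the limits the study states per library on UMIs, genes, mitochondrial and ribosomal share, which left the stated number of cells in 4 libraries and a number that differs by 1 in the other 2. UMIs were summed over the cells of each library and compared with edgeR 4.0.16 in R 4.3.3 (filterByExpr, TMM factors 0.927 to 1.14, quasi-likelihood test over all 6 libraries, 3 residual and a median of 5.48 prior degrees of freedom, common biological coefficient of variation 0.0689). Benjamini-Hochberg adjustment ran over 18987 genes and calls needed an adjusted p under 0.05. With n = 2 cultures per day, p-values rest on the spread between these libraries. The SE of a log2 fold change is its absolute size divided by the square root of the F statistic of the test. DESeq2 1.42.0 was an alternative. The edgeR step was tested on simulated data with known fold changes. CPM of summed libraries carry TMM factors, except those of Runx2, Smpd3, Msx2, Atf4, Ank, Slc20a1, Enpp1, Slc20a2 and the summed macrophage, osteoclast and muscle lists. CPM of groups of cells carry none.

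Cells were thinned to 3000 UMIs by drawing without replacement, and the expected number of cells with both genes of a pair is the product of their shares. Cell groups were defined by 3 or more genes of a list. Doublets were not removed, and results were repeated without cells above the 95th percentile of UMIs of their library. Positions are from GENCODE vM21, on the build of the counts. Besides the 9 genes, those named are 10 fixed genes (Runx2, Alpl, Col1a1, Col10a1, Mmp13, Ihh, Col2a1, Tyrobp, Ctsk, Cnn1), the 2 called genes with the largest change per list and comparison (given in part, the rest as counts), and the 10 most like Ibsp and Spp1. Genes named within groups of cells beyond these (Dlx3, Msx2, Atf4, Pth1r, Ank, Slc20a1, Enpp1, Slc20a2, Phospho1, Tagln, Acta2), and Bglap3, Dspp and Wnt10a, Igfbp7 and Stmn2, were chosen after their values were seen or from the study's annotation. The 9 genes and the lists were chosen with earlier results of these data known. A result for 1 gene of the lists is not reported here.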

Additional observations from a re-analysis of the deposited data

How the results depend on the processing

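Of 132 recomputed counts of calls, all stayed within 1.5 times, and of 297 recomputed fold changes of the 9 genes between days, 294 kept their direction and their side of the threshold. The other 3 were the Dmp1 rise at Day 10 against Day 7, which missed it with the replicate block (0.61, adjusted p = 0.0541) and without Day 7 or Day 10 replicate B. The letters A and B were not used to pair the samples in the main fit, since the labels do not say whether a letter marks 1 batch. Deviations from the day means correlated at -0.016, -0.057 and -0.008 between days, which with 2 libraries per day cannot decide it. With the replicate block the number of the 9 genes called higher was 7, 8 and 8 in the 3 comparisons in order of time. In the contrast of the 2 steps, 8 of 99 recomputed values lost the call and 1 gained it. Pairs found together above 1.5 times expectation numbered 9 of 26 at Day 10 with 3000 UMIs per cell, 5 of 18 with 1000, where 1 pair also fell below expectation in both libraries, and 15 of 36, 5 of 21 and 1 of 15 at Day 10, Day 7 and Day 2 without thinning, where depth differs between cells. Values of cells, recomputed next, counted as unchanged within the SD of the 2 replicates or, for counts, within 1.5 times. Of 20 planned values of cells grouped by their UMIs or of the share of cells with Ibsp, 11 were unchanged. Of 9 added later, 7 moved, 1 reversed and 1 was unchanged. Of 18 values for the other shares of cells, 16 moved. The 2 unchanged were counts of genes with higher shares at Day 10 than at Day 2, 8 of the 9 under each thinning, with no count over all genes beside them. The fold of Sparc in cells with Ibsp turned from 0.949 to 1.07 with 10 or more Ibsp UMIs, and the cause was not tested. At Day 2, 1 to 91 UMIs of Ibsp, Bglap, Bglap2, Dmp1 and Ifitm5 per library limit what could be seen.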
